A study of Mus musculus with 4 samples.

Results

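The stem cell transcription factors described here are 9 genes, namely Hlf, Mecom, Meis1, Mllt3, Gata2, Erg, Runx1, Tal1 and Lmo2, of 22180 genes measured. They were taken by gene symbol, each through the probe set that names it alone and has the highest mean over the 4 arrays, and all 9 were measured. RNA was measured on 1 Affymetrix array per group, in LSK cells, the marrow fraction sorted for Sca-1 and c-Kit and against lineage markers, which contains stem cells and multipotent progenitors. Per the labels, all mice were C57/B6 males, 4 months old. AMKO and Ctrl mice were taken 8 days after an injection of 150 mg/kg 5-fluorouracil (5FU), a nucleobase analog toxic to cycling cells, and AMKO and Ctrl mice were also taken at basal (day 0). The labels do not spell out AMKO, do not describe the Ctrl genotype further and do not say how many mice gave an array. With 1 array per group no difference below has a replicate error or a test.

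Blood stem cells are kept in their state by a small network of DNA-binding factors that bind shared enhancers and each other's genes. Gata2, Tal1, Lmo2, Erg and Runx1 act together there with Fli1 and Lyl1. Hlf, Mecom, Meis1 and Mllt3 are high in stem cells and decline as progenitors commit. In an array of sorted cells, fewer cells that express a gene and less of its RNA per cell cannot be told apart.

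Values are log2 probe set values as deposited, so a difference of 1 is 2-fold. Probe sets bind with different strength, so values are compared between arrays and never between genes. Genes whose highest value reached 5.475, the median over all values, were kept, 14061 in number, and every one of the 9 factors passed on all 4 arrays. Spearman correlations between arrays, across probe sets, ran from 0.963 to 0.985. Kit, the c-Kit sort marker, had 11.16 in AMKO and 11.08 in Ctrl at day 8, against 11.87 in AMKO and 11.84 in Ctrl at basal. No probe set names Ly6a, the Sca-1 gene, alone. The Ctrl day 8 array stood apart, with high markers of mature blood cells, given below, and with Xist, a transcript of the inactive X chromosome of females, at 7.65 against 3.97 to 4.41 on the other arrays. This Xist value is at odds with the labels, which give males for every array, and its source was not tested. In the Ctrl basal array the muscle genes Acta1 and Myh4 were at 9.61 and 8.93, against at most 7.07 and 4.82 elsewhere. The AMKO comparison uses neither Ctrl array.

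How the factors differed between LSK cells at day 8 after 5FU and at basal was read in each genotype. All 9 were lower at day 8 in AMKO (7 when each array was centred on its median) and all 9 in Ctrl, by a median of 0.47 in AMKO and 0.59 in Ctrl on the log2 scale. Over all genes kept, the median differences were 0.03 in AMKO and 0.01 in Ctrl, while 46.8% of genes were lower in AMKO, 48.9% in Ctrl and 33.7% in both genotypes. For every one of the 9 (7 after that centring), both day 8 values lay below both basal values, as for 27.7% of genes kept. Most of the differences were small. Of the 18 differences, 17 were under 2-fold. A drop of at least 2-fold was seen for 0 factors in AMKO, where 3.55% of genes were that much lower, and for 1 factor, Gata2, in Ctrl, where 4.46% were. No factor was at least 2-fold higher, as 4.69% of genes were in AMKO and 5.02% in Ctrl. At least 1.5-fold lower were 4 factors in AMKO (Gata2, Tal1, Runx1 and Meis1), as were 10.5% of genes, and 5 in Ctrl (Gata2, Tal1, Meis1, Mllt3 and Hlf), as were 11.9%. None was 3-fold lower, as 0.967% of genes were in AMKO and 1.37% in Ctrl.

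**Figure D1:**
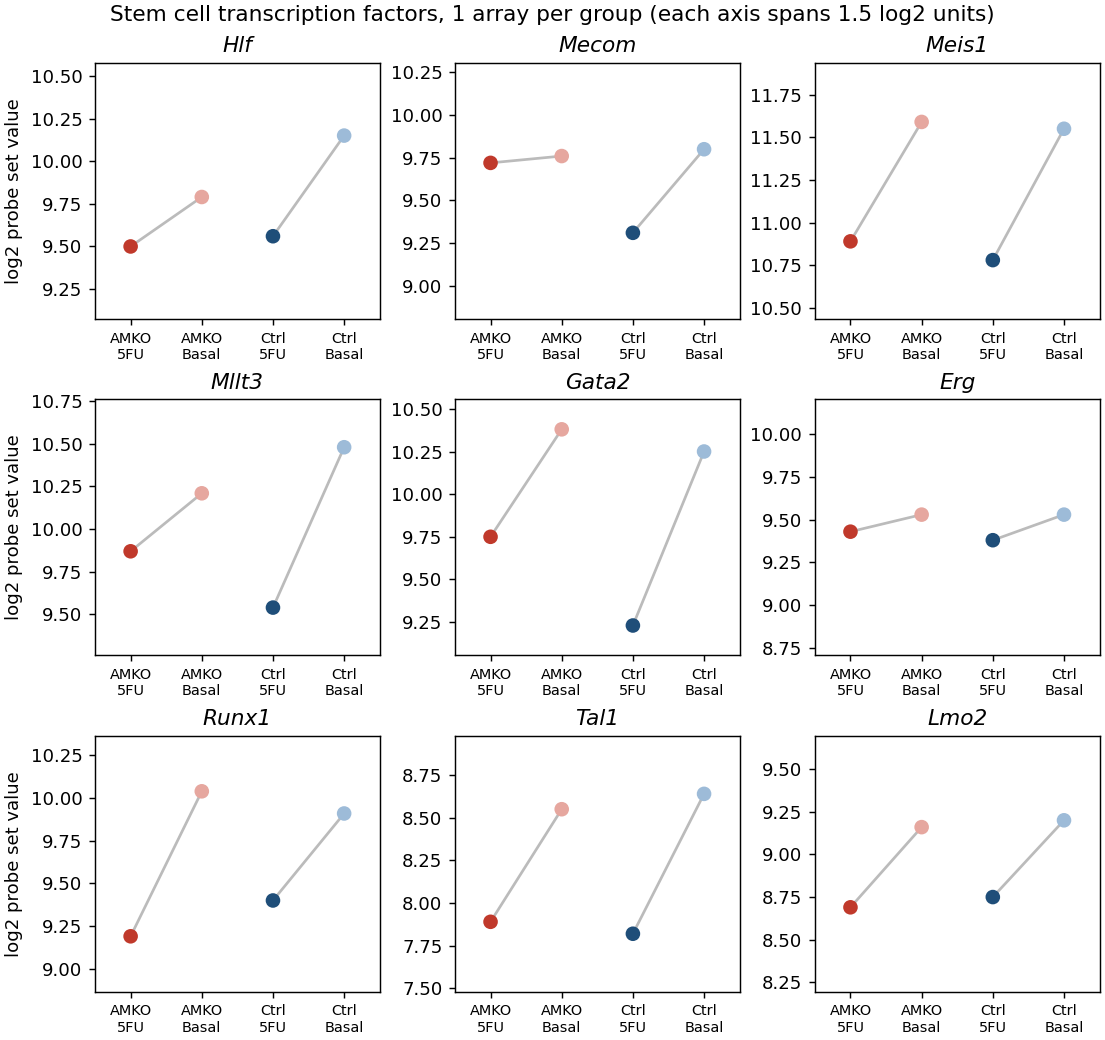
The log2 value (y axis) of each of the 9 factors on each of the 4 arrays (x axis), 1 point per array, with grey lines joining the 2 arrays of a genotype. Each panel spans 1.5 log2 units around its own gene. In every panel of these deposited values both 5FU points lie below both Basal points, by a wide gap for Meis1 and Tal1 (0.66 between the nearest points) and by 0.04 for Mecom, which with Erg turns in AMKO when arrays are centred on their medians.

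Of the factors that share enhancers with Fli1 and Lyl1, Gata2, a zinc finger factor needed for stem cell survival and expansion, differed most on average. It had 9.75 in AMKO and 9.23 in Ctrl at day 8, against 10.38 in AMKO and 10.25 in Ctrl at basal. The Ctrl day 8 array was the lowest, and the day 8 and basal values did not overlap. Gata2 was thus 1.55-fold lower in AMKO and 2.03-fold lower in Ctrl, differences of -0.63 and -1.02. Among genes kept, 9.37% were as low or lower in AMKO and 4.30% in Ctrl.

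Tal1, a basic helix-loop-helix factor that pairs with E proteins at E-box sites, had 7.89 in AMKO and 7.82 in Ctrl at day 8, against 8.55 in AMKO and 8.64 in Ctrl at basal. The genotypes lay close together at each time, and Tal1 was 1.58-fold lower in AMKO and 1.77-fold lower in Ctrl. Lmo2, a LIM-only protein that binds no DNA itself and bridges Tal1 to GATA factors, had 8.69 in AMKO and 8.75 in Ctrl at day 8, against 9.16 in AMKO and 9.20 in Ctrl at basal. Its drop was nearly equal in both genotypes, 1.39-fold in AMKO and 1.37-fold in Ctrl.

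Runx1, the DNA-binding subunit of core binding factor, had 9.19 in AMKO and 9.40 in Ctrl at day 8, against 10.04 in AMKO and 9.91 in Ctrl at basal. It was 1.80-fold lower in AMKO, where 5.18% of genes were as low or lower, and 1.42-fold lower in Ctrl, so that its drop was larger in AMKO. Erg, an ETS factor of stem cells and endothelium, differed least of the 9 in Ctrl and on average, and second least in AMKO after Mecom, with 9.43 in AMKO and 9.38 in Ctrl at day 8, against 9.53 in both genotypes at basal. Its log2 differences of -0.10 in AMKO and -0.15 in Ctrl were smaller than the median size of all genes kept (0.32 in AMKO and 0.30 in Ctrl). Centring each array on its median turned the AMKO value of Erg to 0.01, and quantile normalization moved it to -0.28.

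Of the factors that mark stem cells among progenitors, Meis1, a homeodomain partner of HOX and PBX proteins, had 10.89 in AMKO and 10.78 in Ctrl at day 8, against 11.59 in AMKO and 11.55 in Ctrl at basal. It was 1.62-fold lower in AMKO and 1.71-fold lower in Ctrl, and the genotypes differed by at most 0.11 at either time. Of all pairs among the 9, Meis1 and Tal1 had the most alike profiles over the 4 arrays once each was centred on its mean (Euclidean distance 0.0963). This is a description of 4 arrays and not a correlation between samples.

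Mllt3, also called AF9, a chromatin reader of the super elongation and DOT1L complexes rather than a sequence-specific DNA binder, had 9.87 in AMKO and 9.54 in Ctrl at day 8, against 10.21 in AMKO and 10.48 in Ctrl at basal. Both Ctrl values lay outside the AMKO pair, the basal one above and the day 8 one below, and the drop was 1.27-fold in AMKO and 1.92-fold in Ctrl. Hlf, a PAR-domain leucine zipper factor, had 9.5 in AMKO and 9.56 in Ctrl at day 8, against 9.79 in AMKO and 10.15 in Ctrl at basal. The day 8 values nearly coincided, while the Ctrl basal array was the highest, so that Hlf was 1.22-fold lower in AMKO and 1.51-fold lower in Ctrl.

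Mecom, the locus of the zinc finger factor EVI1, had its lowest value on the Ctrl day 8 array. It had 9.72 in AMKO and 9.31 in Ctrl at day 8, against 9.76 in AMKO and 9.80 in Ctrl at basal. In the deposited values the other 3 arrays lay within 0.08, with a 1.40-fold drop in Ctrl and a log2 difference of -0.04 in AMKO. The AMKO difference became 0.07 when arrays were centred on their medians and -0.22 after quantile normalization, so that its sign and size depend on the scaling. A second Mecom probe set had 7.31 in AMKO and 6.75 in Ctrl at day 8, against 7.31 in AMKO and 7.35 in Ctrl at basal. It too was lowest on the Ctrl day 8 array. Mecom is the one factor of the 9 with 2 probe sets.

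**Figure D2:**
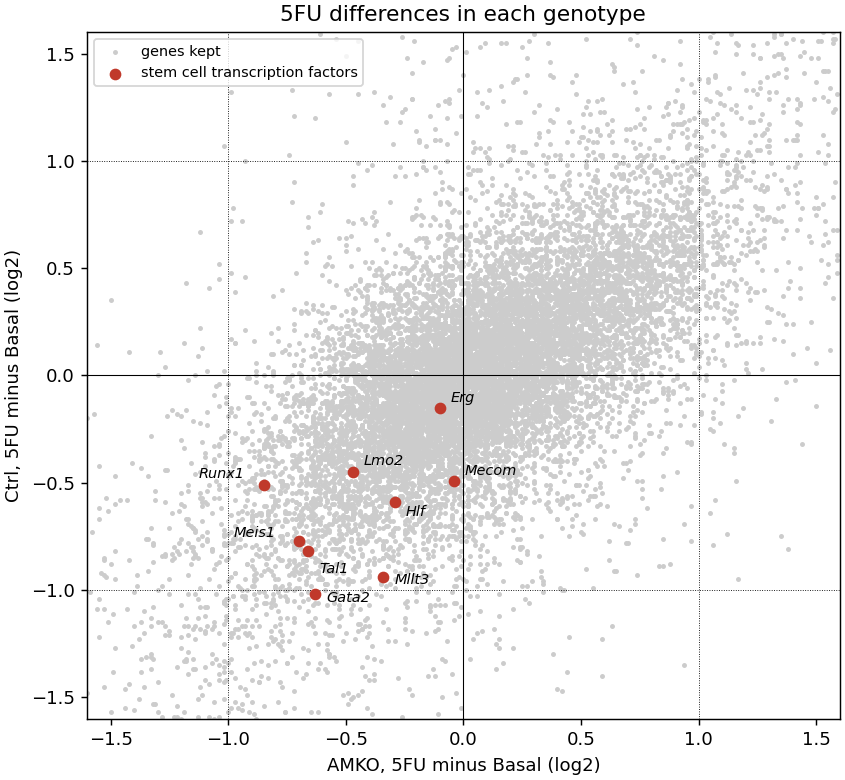
The 5FU minus Basal log2 difference in AMKO (x axis) and in Ctrl (y axis), with the 9 factors as labelled red points over the genes kept in grey. Dotted lines mark 2-fold, and 607 genes lie outside the axes, which end at 1.6. All 9 factors lie below 0 on both axes, Gata2 just past the Ctrl 2-fold line, and Mecom and Erg next to 0 in AMKO, where they turn to 0.07 and 0.01 when arrays are centred on their medians.

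To show the promoters behind the most alike pair, the factor with the largest average drop and the factor whose deposited difference was smallest in AMKO, the 250 bases before an annotated start are given for Meis1, Tal1, Gata2 and Mecom, 5′ to 3′ along each gene's strand, from RefSeq on GRCm38.p6. The windows are chr11:19018970-19019219 (minus strand), chr4:115056176-115056425 (plus strand), chr6:88193641-88193890 (plus strand) and chr3:30509760-30510009 (minus strand). The last 3 genes each have a further annotated start, the upstream one is shown, and the arrays do not tell which is used. Capitals mark letters that match a motif searched on both strands.
Meis1: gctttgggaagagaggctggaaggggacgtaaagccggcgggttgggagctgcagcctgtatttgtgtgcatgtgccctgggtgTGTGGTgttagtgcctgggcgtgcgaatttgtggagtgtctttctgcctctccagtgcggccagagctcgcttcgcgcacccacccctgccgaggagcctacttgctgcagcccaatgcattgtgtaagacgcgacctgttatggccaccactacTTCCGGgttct
Tal1: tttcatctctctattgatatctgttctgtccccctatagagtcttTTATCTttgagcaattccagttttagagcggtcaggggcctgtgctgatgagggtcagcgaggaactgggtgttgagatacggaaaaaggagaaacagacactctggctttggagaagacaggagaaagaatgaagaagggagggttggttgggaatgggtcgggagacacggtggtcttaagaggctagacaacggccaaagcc
Gata2: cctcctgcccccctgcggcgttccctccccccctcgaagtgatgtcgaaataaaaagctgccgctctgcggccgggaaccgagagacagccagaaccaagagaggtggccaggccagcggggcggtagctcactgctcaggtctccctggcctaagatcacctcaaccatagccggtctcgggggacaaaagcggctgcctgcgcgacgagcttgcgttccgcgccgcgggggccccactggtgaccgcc
Mecom: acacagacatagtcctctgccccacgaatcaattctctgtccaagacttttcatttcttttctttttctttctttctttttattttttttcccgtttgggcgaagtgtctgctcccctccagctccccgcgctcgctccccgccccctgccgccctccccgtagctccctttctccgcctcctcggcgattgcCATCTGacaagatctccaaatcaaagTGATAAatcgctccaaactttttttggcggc

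The motifs were GATA (GATAA or GATAG after an A or a T), RUNX (TGTGGT or TGCGGT), ETS (CCGGAA or AGGAAG), the E-box (CAGCTG or CAGATG) and MEIS (TGACAG), and no matches overlapped. Capitals in the Meis1 window are a RUNX match starting at position -166 and an ETS match at -11 from the start. The Tal1 window holds a GATA match at -205, the Mecom window an E-box match at -57 and a GATA match at -31, and the Gata2 window none of these letters. RefSeq gave 15 windows for 8 of the 9 factors, Lmo2 being named only. Of the 15, 5 held a GATA match, against 26.5% of 32851 promoters, and 5 an ETS match, against 38.2%. A RUNX match was in 1 (18.6% of promoters), an E-box match in 3 (25.5%) and a MEIS match in 3 (15.9%). A match describes letters and shows no binding.

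The size of the drop was also set beside the differences between AMKO and Ctrl, the only other contrasts these arrays allow, which are not replicates and share arrays with the 5FU differences. For 7 of the 9 factors, both 5FU differences were larger in size than both AMKO minus Ctrl differences, as for 34.5% of genes kept. The exceptions were Hlf and Mecom. Over genes kept, the 95th percentile of the size of the AMKO minus Ctrl difference was 0.63 at basal and 0.79 at day 8. The 5FU difference was larger than the first for 3 factors in AMKO and 4 in Ctrl. It was larger than the second for 1 in AMKO (Runx1) and 3 in Ctrl. Among the 4142 genes kept with a mean at or above that of the lowest factor, Tal1 (8.225), 27.7% were lower at day 8 in both genotypes. Over these genes the percentile was 0.489 at basal, passed by 4 factors in AMKO and 7 in Ctrl. At day 8 it was 0.51, passed by 4 in AMKO and 5 in Ctrl. The share of genes whose own 5FU difference passed these cuts was not counted, so the counts of factors have no background. Over all genes kept the 5FU differences were wider, with a 95th percentile size of 1.18 in AMKO and 1.37 in Ctrl, which no factor reached.

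How AMKO cells differed from Ctrl cells was read at each time. At day 8, 6 factors were higher and 3 lower in AMKO, with a median log2 difference of 0.07 (0.06 over all genes kept, of which 39.5% were lower). The highest were Gata2 (0.52), Mecom (0.41) and Mllt3 (0.33), and the lowest was Runx1 (-0.21). At basal the median was -0.04, Hlf (-0.36) and Mllt3 (-0.27) being the lowest and Gata2 and Runx1 (0.13 each) the highest. No factor differed 2-fold at either time, where 0.74% of genes were that much higher and 2.63% lower at day 8, and 0.228% higher and 0.697% lower at basal. The 5FU drop was larger in Ctrl for 7 factors (5 after quantile normalization and 8 after centring on array medians) and larger in AMKO for Runx1 and Lmo2. Over all genes kept, the Ctrl difference was the lower one for 55.2%. The gap between the genotypes' 5FU differences was widest for Mllt3 (0.60) and Mecom (0.45), has no test, and rests on the Ctrl arrays that stood apart.

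**Figure D3:**
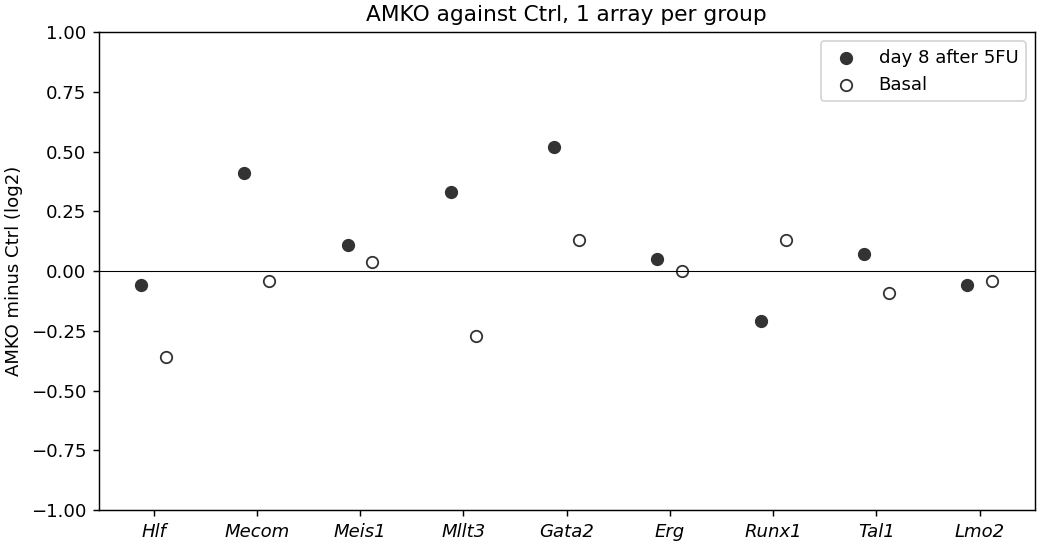
The AMKO minus Ctrl log2 difference (y axis) of each factor (x axis) at day 8 after 5FU (filled points) and at Basal (open points), 1 array per group. Gata2, Mecom and Mllt3 lie highest at day 8, and Hlf and Mllt3 lowest at Basal.

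Markers of other cells were read on each array. The 16 measured neutrophil genes were at or above 5.475 in 8 cases in AMKO and 16 in Ctrl at day 8, against 5 in each genotype at basal. Their summed linear level was 1397 in AMKO and 28196 in Ctrl at day 8, against 1994 in AMKO and 1815 in Ctrl at basal. The granulocyte-monocyte genes (11 measured) summed to 916 in AMKO and 8950 in Ctrl at day 8, against 879 in AMKO and 778 in Ctrl at basal. The 10 B-lineage genes summed to 660 in AMKO and 5507 in Ctrl at day 8, against 623 in AMKO and 628 in Ctrl at basal. Mast cell and basophil genes, of interest for Gata2, summed to 278 in AMKO and 910 in Ctrl at day 8, against 266 in AMKO and 281 in Ctrl at basal. Of the 11 measured, 5 reached 5.475 in Ctrl at day 8 (Mcpt8, Cpa3, Prss34, Hdc and Gzmb) and 1 on each of the other arrays. Erythroid genes summed to 2083 in AMKO and 2868 in Ctrl at day 8, against 2304 in AMKO and 2551 in Ctrl at basal. A sum is weighted to genes with high values, and Car2 had the highest of these on every array. It differed by -0.13 in AMKO and -0.48 in Ctrl. Car1, Slc4a1 and Ermap differed by 2.58, 2.72 and 2.41 in Ctrl, where 3 of the 9 measured were lower. In AMKO these differed by -1.10, -0.46 and -0.65. In AMKO the neutrophil sum rested on Csf3r, a receptor gene that had 9.52 at day 8 against 10.49 at basal. Without Csf3r, left out after seeing the data, the other 15 summed to 662 in AMKO and 26787 in Ctrl at day 8, against 556 in AMKO and 546 in Ctrl at basal. Of these 15, 9 were higher and 6 lower in AMKO. S100a8 (1.21, from a basal value of 4.27, under 5.475) and Cxcr2 (1.12) were over 2-fold higher, as were 4.69% of genes kept. The part of these cells in the differences of the factors was not tested in either genotype.

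Megakaryocytes and endothelium also express several of the 9, and most marker genes kept for each were lower in both genotypes. The 11 measured megakaryocyte genes summed to 3810 in AMKO and 3265 in Ctrl at day 8, against 7865 in AMKO and 7683 in Ctrl at basal, and 9 of the 10 kept were lower in both genotypes. The 12 endothelial genes summed to 4452 in AMKO and 3760 in Ctrl at day 8, against 6190 in AMKO and 6493 in Ctrl at basal. Of the 11 kept, 7 were lower in both, 2 higher in both (Egfl7 and Pecam1) and 2 opposite (Cdh5 and Emcn). Among all genes kept, 33.7% were lower and 37.0% higher in both genotypes. Proliferation genes such as Mki67 and Cdk1 were higher in both genotypes for 11 of 11, with a median difference of 1.36 in AMKO and 1.5 in Ctrl. Of 16 stem and progenitor marker genes kept, 12 were lower and 3 higher in both. Their medians were -0.705 in AMKO and -0.975 in Ctrl, with Clec1a the lowest (-2.13 and -3.04). Cd34, Flt3 and Cd48 were higher, Cd48 by 4.34 in AMKO and 4.97 in Ctrl from basal values under 5.475. This list shares Vwf with the megakaryocyte genes and Tek, Robo4, Eng and Esam with the endothelial ones. The part of these in the drop of the factors was not tested.

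**Figure D4:**
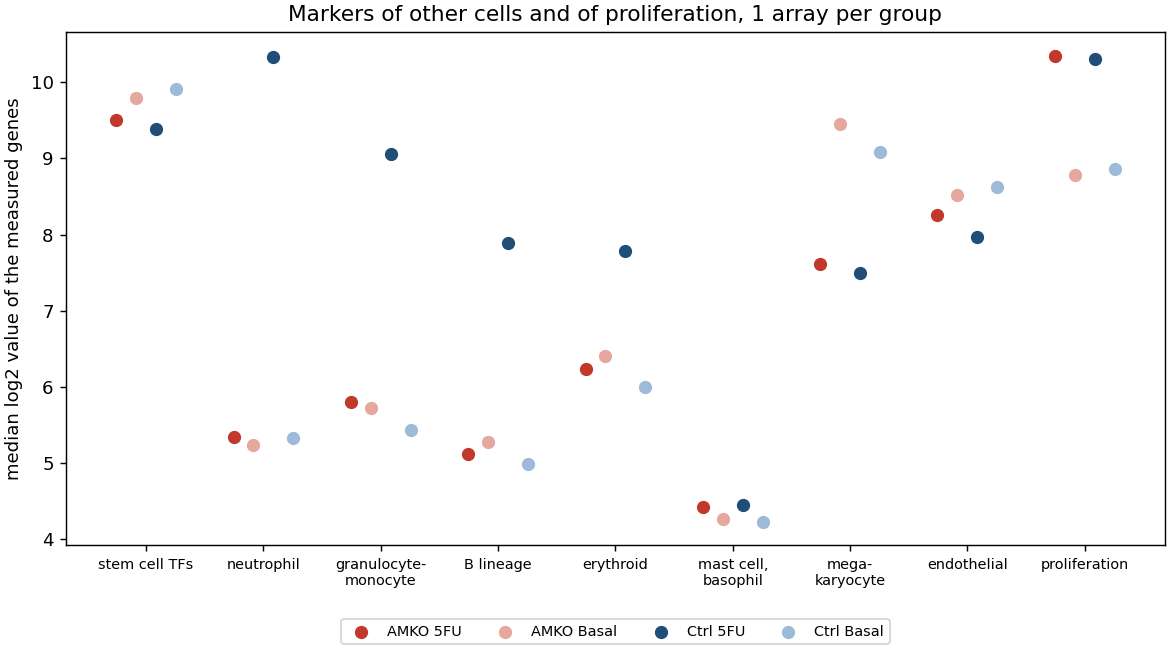
The median log2 value (y axis) of the measured genes of each marker list (x axis) on each array, with 1 point per array. The Ctrl 5FU array stands far above the others for neutrophil (10.34), granulocyte-monocyte (9.06) and B-lineage (7.88) genes, while megakaryocyte and endothelial medians lie lower on both 5FU arrays.

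Proteins that bind the 9 factors were described next. Of 20 partner genes kept, 12 were lower in both genotypes (9 after centring on array medians, 16 after quantile normalization) and 3 higher in both, against 33.7% and 37.0% of all genes, with a median of -0.175 in AMKO and -0.165 in Ctrl. Ldb1, the adaptor that joins Lmo2 complexes across enhancers and promoters, had 10.11 in AMKO and 10.00 in Ctrl at day 8, against 11.0 in AMKO and 10.96 in Ctrl at basal. Its differences of -0.89 and -0.96 were larger than those of Lmo2 itself. The corepressor Cbfa2t3, also called ETO2, differed by -0.76 in AMKO and -0.60 in Ctrl, and Zfpm1, the GATA cofactor FOG1, by -0.43 and -0.76. Pbx3, a partner of Meis1, differed by -0.20 in AMKO and -1.01 in Ctrl, the one partner past 2-fold in the deposited values. After centring on array medians it had -0.97 in Ctrl and no partner was past 2-fold, while after quantile normalization Ldb1 was too, with -1.13 in AMKO and -1.06 in Ctrl. Fli1 differed by -0.43 in AMKO and -0.53 in Ctrl and Lyl1 by -0.50 and -0.27, so that all 7 factors of the shared network, with Gata2, Tal1, Lmo2, Erg and Runx1, were lower in both genotypes, Erg turning in AMKO under the centring above. Cbfb, the partner of Runx1, was instead higher by 0.26 in AMKO and 0.28 in Ctrl. Dot1l, the histone methyltransferase bound by Mllt3, was higher by 0.36 and 0.33, while Aff4, a super elongation subunit, differed by -0.26 and -0.56. The E protein Tcf12 differed by -0.01 and -0.14 (0.10 in AMKO after centring).

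Relatives in the same protein families were mixed. Of 17 kept of 20 measured, 8 were lower and 5 higher in both genotypes (33.7% and 37.0% of all genes kept). Their medians were -0.24 in AMKO and -0.27 in Ctrl, the second turning to 0.305 when a level of 7.32 was required. Gata1, the erythroid and megakaryocyte relative that takes over sites of Gata2 as cells differentiate, had 7.38 in AMKO and 7.32 in Ctrl at day 8, against 6.61 in AMKO and 6.37 in Ctrl at basal. It was thus higher by 0.77 in AMKO and 0.95 in Ctrl, opposite to Gata2 in both. Prdm16, the Mecom relative with a stem cell role, was lower in both genotypes, with differences of -0.88 in AMKO and -0.92 in Ctrl, where Mecom had -0.04 and -0.49. With the probe sets of a gene averaged, Prdm16 had -0.355 in AMKO and -0.465 in Ctrl, the second smaller in size than the -0.545 of Mecom. Meis2 (-0.78 in AMKO and -0.99 in Ctrl) and Meis3 (-0.58 and -1.14) were lower beside Meis1, though Meis2 at day 8 (5.42 in AMKO and 4.99 in Ctrl) and Meis3 at day 8 in Ctrl (5.28) lay under 5.475, which makes those sizes uncertain. Lmo1 was higher by 0.75 in AMKO and 0.98 in Ctrl, opposite to Lmo2.

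Other stem cell factors, 24 in number, were lower in both genotypes in 14 cases and higher in both in 4. Among all genes kept, the shares were 33.7% and 37.0%. The medians, -0.27 in AMKO and -0.26 in Ctrl, were closer to 0 than those of the 9. The widest drops were larger than any among the 9. At least 2-fold lower were 3 in AMKO and 6 in Ctrl (2 and 5 with probe sets averaged), as were 3.55% and 4.46% of genes kept. Hoxb4, a homeobox factor, differed by -1.44 in AMKO and -1.55 in Ctrl, the immediate early factor Egr1 by -1.19 and -1.75, Nkx2-3 by -0.86 and -1.40, and Hoxb5 by -1.07 and -1.30. With probe sets averaged, Hoxb5 had -0.33 in AMKO and -0.71 in Ctrl and was under 2-fold in both.

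Reported targets of the 9 did not move one way. Of 18 kept, 11 were lower in both genotypes and 5 higher in both, against 33.7% and 37.0% of all genes kept. Many of these genes stand in other lists too. Fli1, Lyl1 and Cbfa2t3 are also partners, and Kit, Tek, Eng, Cd34 and Flt3 stem and progenitor markers. Itga2b and Pf4 are also megakaryocyte genes, and Nfe2 and Spi1 lineage factors. The relatives share Fli1 and Lyl1 with the partners, and Prdm16, Etv6 and Gata3 with the other stem cell factors. The counts of these lists are thus not separate. Itga2b, the platelet integrin CD41, differed by -1.55 in AMKO and -1.04 in Ctrl, Trib2, a pseudokinase gene bound by Meis1, by -1.48 and -0.95, and Eng, the TGF-beta coreceptor endoglin, by -0.82 and -1.19. Flt3, a cytokine receptor of progenitors, was higher by 0.52 in AMKO and 1.57 in Ctrl, and Csf1r, the monocyte receptor, by 0.39 and 1.98. Both higher sizes in Ctrl lie on the array with high markers of mature cells.

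Lineage factors direct cells out of the stem cell state. Of 17 kept, Ebf1, Pax5 and Irf4 passed the minimum level through the Ctrl day 8 array alone, so that they had to be high there. Of the other 14 (a split made after seeing the data), 9 were higher in both genotypes and 4 lower in both. Among all genes kept, 37.0% were higher and 33.7% lower in both. The median of the 14 was 0.13 in AMKO and 0.65 in Ctrl. At least 2-fold higher were 0 of the 14 in AMKO and 3 in Ctrl, as were 4.69% and 5.02% of all genes kept. Irf8, a monocyte and dendritic cell factor, was higher by 0.57 in AMKO and 3.08 in Ctrl, but by 0.15 and 1.67 with probe sets averaged. Cebpe, a granulocyte factor, was higher by 0.19 in AMKO and 1.81 in Ctrl. The B-lineage factors Ebf1 and Pax5, admitted by their Ctrl day 8 level, had 0.32 and 0.09 in AMKO and 3.89 and 3.14 in Ctrl. Spi1, the myeloid and lymphoid factor PU.1, was higher by 0.41 in AMKO and 0.58 in Ctrl.

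**Figure D5:**
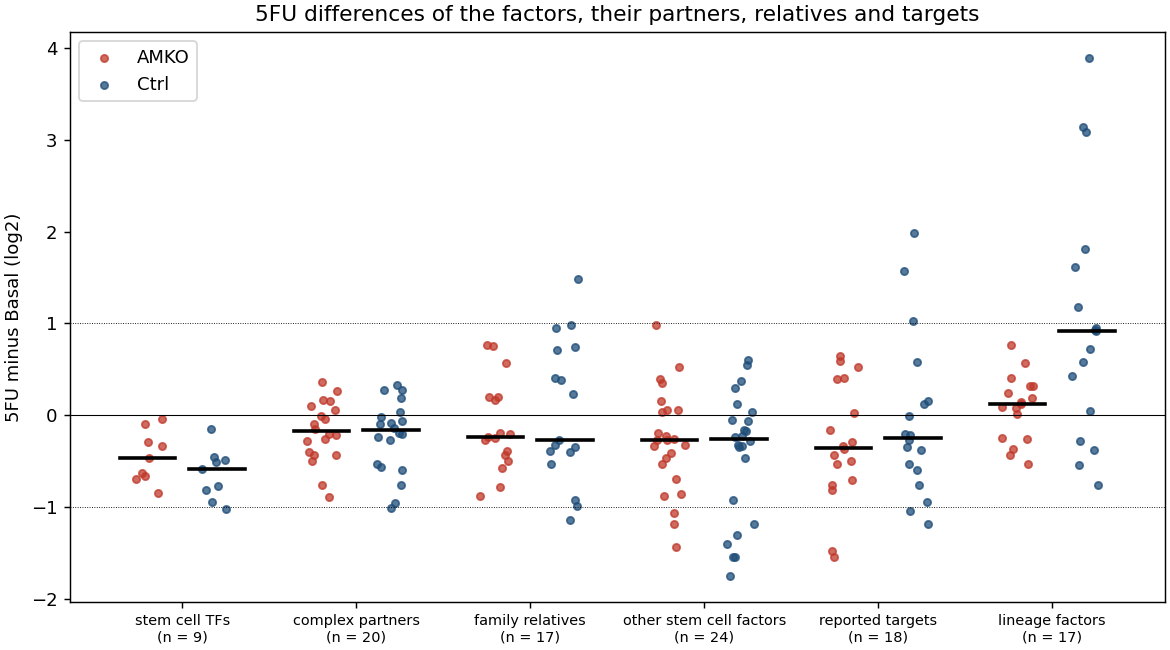
The 5FU minus Basal log2 difference (y axis) of the kept genes of 6 lists (x axis), AMKO in red and Ctrl in blue, 1 point per gene with black bars at the medians. All points of the 9 stem cell factors lie below 0, the other lists spread over both sides of it, Mecom and Erg turn in AMKO when arrays are centred on their medians, and the lineage factors reach 3.89 in Ctrl (Ebf1, which passed the minimum level through the Ctrl 5FU array alone).

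The genes most like Gata2, the one factor whose highest and lowest arrays differed by over 1 on the log2 scale (1.15), were sought over the 4 arrays by Euclidean distance between centred profiles. They were Fam135a (distance 0.0374), Galm (0.051) and Lurap1 (0.0622). Galm, the aldose mutarotase gene, had 7.29 in AMKO and 6.82 in Ctrl at day 8, against 7.96 in AMKO and 7.78 in Ctrl at basal. Fam135a in Ctrl (5.08) and Lurap1 in both genotypes (5.42 in AMKO and 4.97 in Ctrl) lay under 5.475 at day 8.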

How the data were processed

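The authors' deposited table holds 1 value per probe set and array for 34472 probe sets, read as log2 because values lie between 1.99 and 13.43. Per the labels' protocols, RNA was column-purified and biotin-labelled for Affymetrix arrays. No source used here gives the background correction, normalization or software. Deposited values were used without further scaling. The platform annotation names 1 gene for 23521 probe sets, whose symbols were updated by Entrez identifier for 23328 through a RefSeq table of GRCm38.p6. For genes with several probe sets, the one with the highest mean was used. Differences and counts past 2-fold were computed in Python 3.11.15 with pandas 2.3.3. The number of arrays limits the precision, and with 1 array per group no test was run. The calculation was tested on simulated data. The members and gene lists, and the list genes named (up to 4 with the largest mean 5FU difference, members' binding partners, and the 3 nearest profiles), were chosen with earlier results of these data known. Some marker genes were named after seeing the data, because they ran against their list, carried a sum or were shared between lists. The targets list rests on textbook knowledge. List genes with no probe set naming them alone were not analysed here. Alternatives were other scalings, floors, probe set means and fold sizes.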

Additional observations from a re-analysis of the deposited data

Results flagged for a closer look

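The 5FU differences of 3 named genes and of 1 list median ran in opposite directions in the genotypes, each with 1 array per group, so the difference between the genotypes was not tested. Nfil3, a leucine zipper relative of Hlf, differed by -0.24 in AMKO and 1.48 in Ctrl. The E protein gene Tcf3 differed by -0.15 in AMKO and 0.27 in Ctrl, and Hoxa9, a partner of Meis1, by 0.06 in AMKO and -0.24 in Ctrl. The median of the erythroid genes was -0.20 in AMKO and 0.94 in Ctrl. None of the 9 stem cell transcription factors had opposite differences in the deposited values. With each array centred on its median, Mecom had 0.07 in AMKO and -0.45 in Ctrl, and Erg 0.01 in AMKO and -0.11 in Ctrl.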

How the results depend on the processing

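The 9 factors were lower at day 8 in both genotypes in the deposited values, after quantile normalization, after centring on the genes kept (added after seeing the data), with averaged probe sets and with either other floor. Centring each array on its median, which moved the median of all genes kept to 0.15 in AMKO, left 7, since Mecom (0.07) and Erg (0.01) turned in AMKO. Leaving out the Ctrl day 8 or the Ctrl basal array (added after seeing the data) leaves AMKO alone. The count is then the AMKO one already given, 9 of 9, and is no further check. The count at least 2-fold lower, 0 in AMKO and 1 in Ctrl, depended on the setting. It was 1 in AMKO (Runx1) and 2 in Ctrl (Gata2 and Mllt3) after quantile normalization, and 0 in Ctrl after centring on the array median. At 1.5-fold it was 4 in AMKO and 5 in Ctrl (10.5% and 11.9% of genes kept), and at 3-fold 0 in Ctrl (1.37%). Of 253 values of single genes and list medians, 17 moved by over 0.17 (the median size of the AMKO minus Ctrl difference at basal) after quantile normalization. All 17 were 5FU differences in AMKO, among them those of Hlf, Mecom, Meis1, Mllt3, Gata2, Erg and Runx1. Each of these factors dropped further, Meis1 from -0.70 to -0.91, Gata2 from -0.63 to -0.835 and Runx1 from -0.85 to -1.04. With averaged probe sets 13 moved, 11 of them values of Prdm16, Hoxb5 and Irf8. The median of the 9 ranged from -0.63 to -0.36 in AMKO and from -0.685 to -0.55 in Ctrl over the settings run. No paired analysis was possible because each group has 1 array and the titles carry no replicate numbers. Values near or under 5.475 leave the size of a difference uncertain, which touches list genes and none of the 9.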
